A study of Mus musculus with 6 samples.

Results

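The expression of 10 genes of the NF-kB response and of its negative feedback was followed in sorted bone marrow progenitors of mice with and without miR-155. They are Nfkbia, Nfkbie, Nfkbiz, Tnfaip3, Relb, Nfkb2, Birc3, Tnf, Icam1 and Tnfaip2, chosen as a list and found by gene symbol. All 10 were present among the 22475 genes of the deposited table, and all 10 were among the 13217 genes that passed the filter on low counts. The KO mice carried a homozygous deletion of miR-155 on a homozygous FLT3-ITD background; ITD is a duplicated stretch in the receptor kinase FLT3 that leaves it constitutively active. The control mice had the same FLT3 genotype and wild-type miR-155, so both groups carry the leukaemia-associated FLT3 allele and no mouse without it was compared. Lin-, cKit+, Sca1+ cells (LSK cells, a gate rich in haematopoietic stem and progenitor cells) were sorted from bone marrow. Each of the 3 KO and 3 control libraries held RNA combined from 3 mice, whose age is not given in the sources used here, so every p-value below measures the spread between pools.

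NF-kB is a family of transcription factor dimers that wait in the cytoplasm, bound by inhibitors of the IkB family. In the canonical branch, signals such as TNF, interleukin-1 or Toll-like receptor ligands activate the IKK kinase complex, the inhibitor is degraded, and dimers containing RelA or c-Rel enter the nucleus. In the noncanonical branch the kinase NIK promotes processing of the p100 precursor, and RelB-containing dimers form. Many of the first genes switched on encode the pathway's own brakes, so their RNA is often used as a readout of recent NF-kB activity. In blood-forming cells the pathway is known for its part in inflammatory signalling and survival, and the miR-155 host gene is itself reported to be NF-kB-inducible.

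The guide strand of the deleted microRNA is shown because its seed fixes which transcripts it can pair with best. Its mature sequence, from RefSeq (GRCm38.p6, chr16:84714143-84714165, plus strand), has the seed, bases 2 to 8, in capitals.
mmu-miR-155-5p: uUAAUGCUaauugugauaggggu
The longest annotated 3' UTR of each of the 10 genes (GENCODE M21) was searched on the transcript strand for the 8mer AGCATTAA and for the 7mers AGCATTA and GCATTAA that lie within it. None of the 10 held any of these matches. Their 3' UTRs were between 512 bases (Nfkbia) and 1821 bases (Tnfaip3) long. Among 11761 tested genes with a 3' UTR, 14.67% held at least 1 such match and 3.40% held the 8mer. The absence of a match says only that these letters are not in those 3' UTRs.

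Promoter windows, from 250 bases before to 50 bases after the annotated start (RefSeq, GRCm38.p6), were available for 8 of the 10 genes, all but Nfkbiz and Relb. They were searched on both strands for the kappaB consensus GGGRNNYYCC, the motif that NF-kB dimers bind. In it R is A or G, Y is C or T, and N is any base. A match in any window was found in 5 of the 8 genes, against 9.55% of 27025 genes with windows of the same length and 12.14% of 9290 tested genes. The members were listed as NF-kB response genes and the other genes were not matched for GC content, so this contrast is a description only. Where a gene has several windows they are numbered by coordinate. Each match below has 10 flanking bases on either side, runs 5′ to 3′ on the strand of its gene, and is in capitals. These stretches are shown because they are the sequences through which the factor could act on the genes measured here.
Nfkbia, from 29 bases before the start, chr12:55492657-55492686, minus strand: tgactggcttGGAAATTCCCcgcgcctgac
Nfkbie, from 106 bases before the start, chr17:45555584-45555613, plus strand: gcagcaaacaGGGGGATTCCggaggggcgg
Tnfaip3, from 125 bases before the start of the second window, chr10:19015516-19015545, minus strand: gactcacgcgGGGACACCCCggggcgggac
Nfkb2, from 39 bases before the start of the first window, chr19:46304688-46304717, plus strand: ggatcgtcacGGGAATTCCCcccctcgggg
Nfkb2, from 225 bases before the start of the third window, chr19:46305695-46305724, plus strand: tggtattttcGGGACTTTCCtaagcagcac
Tnfaip2, from 24 bases before the start, chr12:111442627-111442656, plus strand: gactattttaGGAGGGCCCCtccagggtcg
The Tnfaip3 match and the first Nfkb2 match shown hold the consensus on both strands, and the Nfkb2 match overlaps another that begins 38 bases before the start. Further matches of Tnfaip3 and Nfkb2 appear in the map of promoter windows and are not printed. Birc3, Tnf and Icam1 had no match in these windows, which says nothing about binding elsewhere. A match is a string of letters and not a measured binding site.

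**Figure D1:**
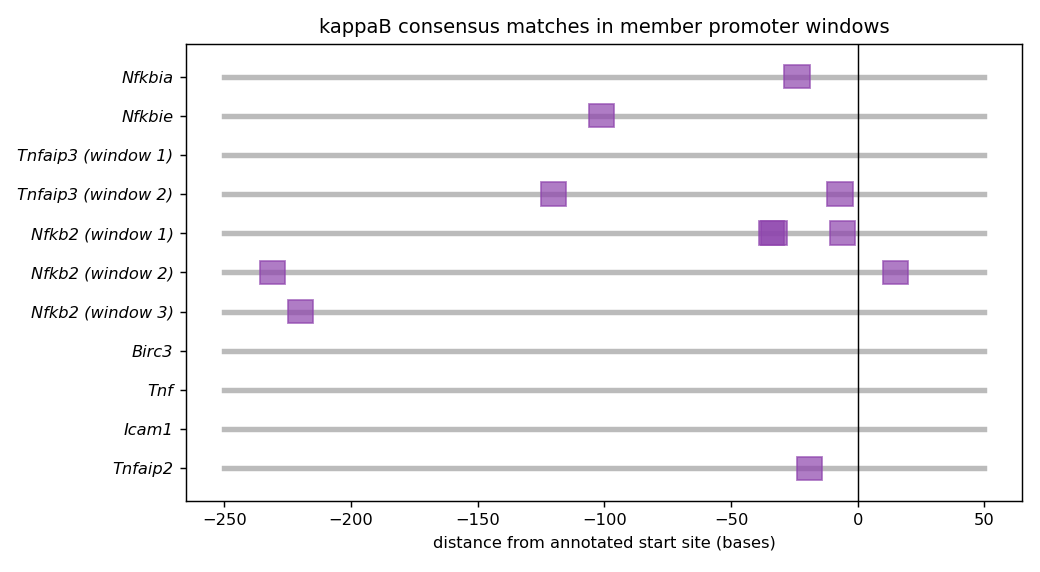
Positions of kappaB consensus matches (purple boxes, 10 bases wide, either strand) along each promoter window (grey line), in bases from the annotated start site at 0. Matches lie in windows of Nfkbia, Nfkbie, Tnfaip3, Nfkb2 and Tnfaip2, and none in those of Birc3, Tnf and Icam1. Windows 2 and 3 of Nfkb2 overlap, so the match shown in window 3 is also drawn in window 2.

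Library totals were between 6843129 and 7601317 counts in the KO group and between 8136914 and 9443615 in the control group. The miR-155 host transcript Mir155hg (ENSMUSG00000097418, listed in the table as Gm26667; GRCm38, chr16:84703167-84715245) had 4, 14 and 4 counts in the KO libraries and 33, 48 and 36 in the control libraries. It was lower in the KO by a log2 fold change of -2.14 ± 0.46 (SE). The edgeR adjusted p was 0.274, and 0.0377 with the replicate number as a block. The sources used here do not state which part of that transcript the deletion takes out. The gate genes were well represented: Kit had 1583 to 2719 counts in the KO and 2224 to 3373 in the control, and Ly6a, which encodes Sca-1, had 799 to 967 in the KO and 862 to 1119 in the control. All 9 listed LSK markers were detected, summing to 1346 to 1879 CPM in the KO and 1422 to 2020 CPM in the control. CPM here is the count scaled to library size with edgeR's TMM factors. RNA of cells that the Lin gate should remove was also present: 8 B and plasma cell genes summed to 669 to 1729 CPM in the KO and 3039 to 4389 CPM in the control. In such bulk libraries fewer cells of a type and less RNA per cell cannot be told apart.

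All 10 genes were clearly expressed, with 127 to 2500 counts per gene and library. By the authors' FPKM, which correct for gene length, Nfkbia was the most abundant in both groups, at 94.2 ± 3.05 in the KO and 92.9 ± 20.96 in the control (SD, n = 3 each). Nfkbiz followed at 40.1 ± 9.22 FPKM in the KO and 41.3 ± 14.6 in the control, and Icam1 at 28.7 ± 5.55 in the KO and 21.9 ± 0.887 in the control. Relb was the least abundant, at 7.56 ± 2.49 FPKM in the KO and 5.998 ± 0.159 in the control, below Tnfaip2 at 11.4 ± 0.843 in the KO and 9.41 ± 1.29 in the control. Between these, Tnfaip3, Nfkb2, Nfkbie, Tnf and Birc3 averaged between 16.1 and 21.5 FPKM in the KO and between 13.6 and 19.1 FPKM in the control. Nfkb2, Nfkbie, Tnf and Birc3 lay within 1 SD of their neighbours in that order in the KO group.

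Of the 10 genes, 9 had a higher mean in the KO, by small margins, and none passed the test. Their log2 fold changes, KO over control, ran from -0.04 (Nfkbiz) to 0.40 (Icam1), with a median of 0.22 beside a median of 0.0010 over all 13217 genes. A log2 fold change above 0 was found for 9 of 10 members (90%) and for 50.2% of all genes tested. The members were chosen with earlier results of these data known and share the same 6 libraries, so this contrast is a description only. In edgeR's quasi-likelihood test, 0 of 10 passed an adjusted p of 0.05 (adjusted p of 0.9995 for each), while 0.159% of all genes did. With the replicate block 0 of 10 passed as well (smallest adjusted p 0.245, for Icam1; 1.36% of all genes passed), and with DESeq2 0 of 10 (0.845% of all genes). At an unadjusted p under 0.05, 1 member (Icam1) passed in edgeR without the block, against 3.90% of all genes. In edgeR with the block, 2 members passed (Icam1, p 0.0080, and Tnfaip2, p 0.040), beside 1238 of all 13217 genes. In no gene were all KO libraries above all control libraries, which was so for 3.43% of all genes tested. KO exceeded control in all 3 pairs of equal replicate number for 1 of 10 members, against 15.1% of all genes.

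**Figure D2:**
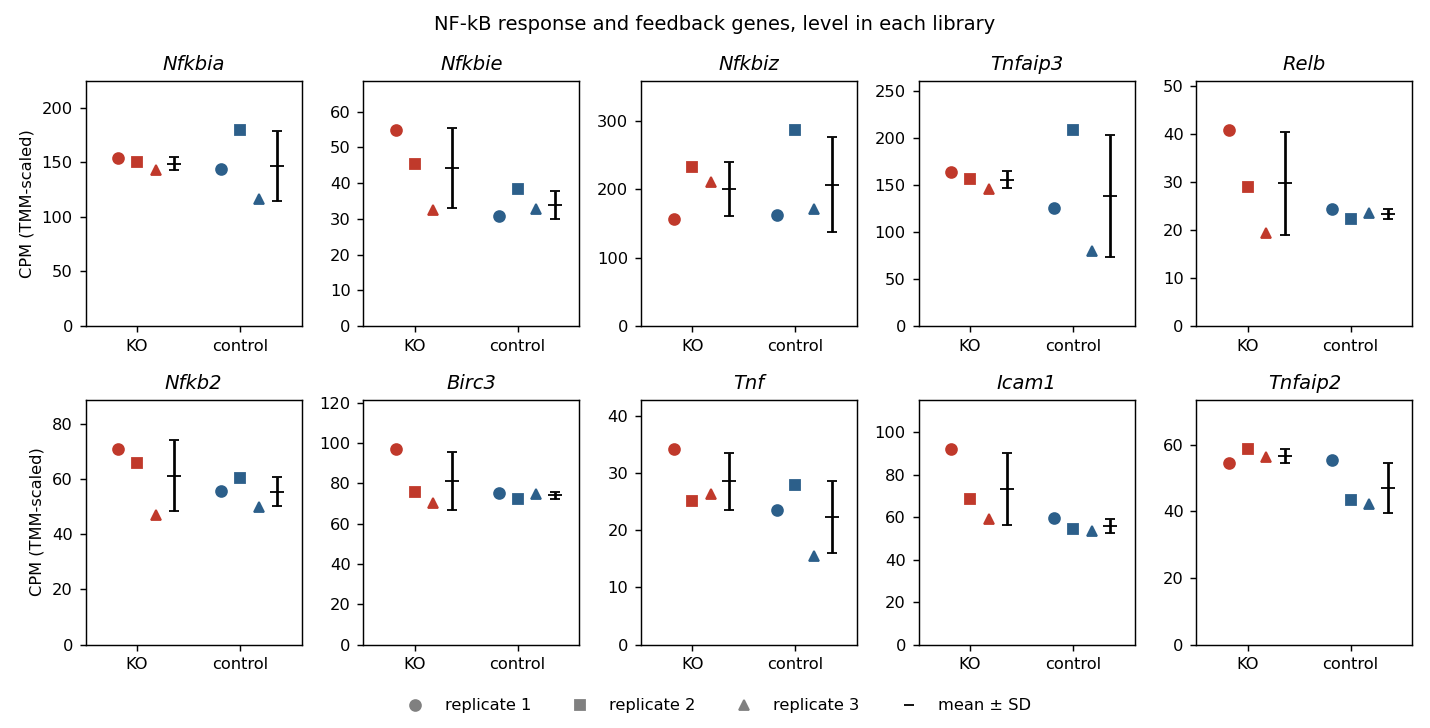
TMM-scaled CPM of each gene in the 3 KO libraries (red, left) and the 3 control libraries (blue, right), with the replicate number as the marker shape and the mean ± SD in black; each vertical axis starts at 0. The groups overlap in every panel: KO replicate 1 is highest in 6 genes, control replicate 2 in 3, and control replicate 3 is lowest in 5.

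Among the inhibitors, Nfkbia, which encodes IkB-alpha, the classical inhibitor resynthesised after each NF-kB pulse (chr12:55489410-55492647, minus strand), was nearly level between the groups. It had 154, 149.9 and 143 CPM in KO replicates 1, 2 and 3, and 144, 179.6 and 116 CPM in control replicates 1, 2 and 3. The KO values lay within the control range, and the control libraries were the more spread out. The log2 fold change was 0.02 ± 0.15 (SE; 95% interval -0.33 to 0.37, a fold of 0.795 to 1.30), so a change of either sign within those bounds was not resolved.

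Nfkbie, encoding IkB-epsilon, a further NF-kB-induced inhibitor that holds back RelA and c-Rel dimers (chr17:45555703-45563169, plus strand), had 54.9, 45.4 and 32.5 CPM in the KO libraries and 30.9, 38.2 and 32.6 CPM in the control libraries. KO replicates 1 and 2 stood above every control library, and KO replicate 3 did not. Its fitted difference was 0.38 ± 0.19 on the log2 scale (SE; 95% interval -0.07 to 0.83), and the pairs of numbers 1, 2 and 3 differed by 0.83, 0.24 and -0.0043. Without KO replicate 1 the log2 fold change was 0.21, and without both libraries of number 1 it was 0.14. Leaving out KO replicate 3 raised it to 0.56.

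Nfkbiz encodes IkB-zeta, an atypical, nuclear member of the family that acts mainly as a coactivator of a secondary set of inflammatory genes (chr16:55811375-55838899, minus strand). It had 157, 233.6 and 210.9 CPM in the KO libraries and 162, 287 and 171.5 CPM in the control libraries, so each group spanned a wide and shared range. It was the only member with a negative log2 fold change, -0.04 ± 0.24 (SE), and that sign turned without KO replicate 1 (0.11) or without control replicate 2 (0.27).

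Tnfaip3 encodes A20, a ubiquitin-editing enzyme that shuts off signalling upstream of IKK (chr10:19000910-19015657, minus strand). It had 164, 157 and 146 CPM in the KO libraries and 126, 208 and 80.2 CPM in the control libraries. The KO libraries were close together, 1.12-fold from lowest to highest, whereas the control libraries spanned 2.60-fold. Of 7496 genes at or above the level of the least abundant member, 0.400% had a control span at least as wide, and 70.5% had a KO span at least as wide as that of Tnfaip3. The log2 fold change of Tnfaip3 was 0.17 ± 0.30 (SE), or -0.10 without control replicate 3, the lowest library. Leaving out control replicate 2, the highest library, raised it to 0.60.

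The 3 members tied to the noncanonical branch shared one arrangement, with KO replicate 1 highest, KO replicate 3 lowest and the control libraries between. Relb, encoding the DNA-binding partner of p52 (chr7:19606217-19629438, minus strand), had 40.8, 28.95 and 19.3 CPM in the KO libraries and 24.3, 22.3 and 23.5 CPM in the control libraries. Its KO libraries spanned 2.11-fold and its control libraries 1.09-fold. The log2 fold change of Relb was 0.34 ± 0.25 (SE), 0.05 without KO replicate 1 and 0.58 without KO replicate 3.

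Nfkb2, encoding p100, which both restrains RelB and is the precursor of p52 (chr19:46304320-46312385, plus strand), had 70.95, 65.7 and 46.7 CPM in the KO libraries and 55.5, 60.4 and 49.9 CPM in the control libraries. KO replicates 1 and 2 stood above every control library and KO replicate 3 below every one. The log2 fold change of Nfkb2 was 0.14 ± 0.16 (SE), 0.0306 without KO replicate 1 and 0.31 without KO replicate 3. Birc3, encoding cIAP2, an E3 ligase that works in TNF receptor complexes and protects from cell death (chr9:7848699-7873186, minus strand), had 97.3, 75.6 and 70.3 CPM in the KO libraries. Its control libraries had 75.4, 72.2 and 74.8 CPM and were the tightest of all 10 genes, 1.04-fold from lowest to highest. Its KO libraries differed by 0.13 ± 0.13 (SE) in log2 fold change, by -0.02 without KO replicate 1 and by 0.22 without KO replicate 3.

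Among the effectors, Icam1, encoding an adhesion molecule for leukocyte integrins (chr9:21015985-21028817, plus strand), had the largest log2 fold change of the 10, 0.40 ± 0.16 (SE; 95% interval 0.01 to 0.78, a fold of 1.01 to 1.715). It had 92.4, 68.7 and 59.4 CPM in the KO libraries and 59.7, 54.4 and 53.4 CPM in the control libraries. KO replicate 3 lay just under control replicate 1, so the groups overlapped narrowly, while each KO library exceeded the control library of its number by 0.63, 0.33 and 0.15 on the log2 scale. The unadjusted p of 0.0446 did not survive adjustment over all genes, and the log2 fold change was 0.20 without KO replicate 1.

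Tnf, the cytokine that both activates NF-kB and is induced by it (chr17:35199381-35202007, minus strand), was the member with the lowest single count. It had 34.3, 25.1 and 26.3 CPM in the KO libraries and 23.6, 27.9 and 15.5 CPM in the control libraries. Control replicate 3 stood below the other libraries and KO replicate 1 above them, with the rest intermixed. For Tnf the log2 fold change was 0.35 ± 0.23 (SE, 95% interval -0.19 to 0.89). It was 0.16 without control replicate 3 and 0.55 without control replicate 2.

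Tnfaip2, a TNF-inducible gene of myeloid and endothelial cells (chr12:111442469-111455018, plus strand), had 54.7, 58.9 and 56.4 CPM in the KO libraries and 55.6, 43.4 and 42.2 CPM in the control libraries. The KO libraries and control replicate 1 were alike, and control replicates 2 and 3 were lower. Its log2 fold change was 0.27 ± 0.12 (SE; 95% interval -0.03 to 0.56), and 0.43 without both libraries of number 1 (edgeR adjusted p 0.260). Exons of Tnfaip2, Icam1 and Nfkb2 overlap genes annotated on the opposite strand (Gm40578, Gm47079, and AC114539.1 with Psd). The use of strand in counting is not given in the sources used here, so reads of these partners cannot be told apart from theirs.

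**Figure D3:**
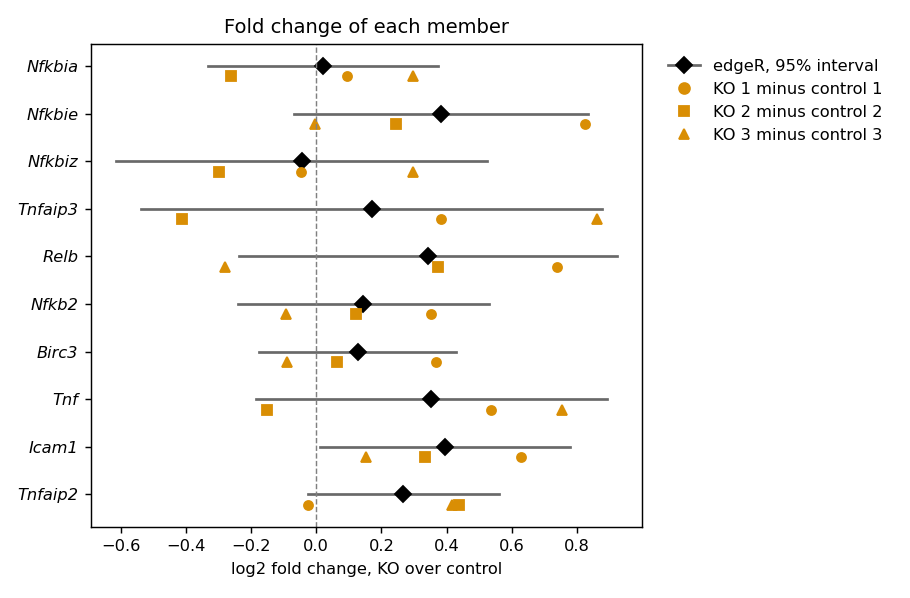
Log2 fold change, KO over control, of each gene from edgeR (black diamond) with its 95% interval (line), and the difference within each pair of equal replicate number (orange markers). Only the interval of Icam1 lies above 0, before adjustment, and only Icam1 has all 3 pairs above 0.

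By role, the 4 genes grouped as inhibitors had a median log2 fold change of 0.10, the 3 noncanonical members 0.14 and the 3 effectors 0.35. The inhibitor group counts Nfkbiz (-0.04), described above as mainly a coactivator, with Nfkbia (0.02), Tnfaip3 (0.17) and Nfkbie (0.38). The order of the inhibitor and noncanonical groups therefore depends on where Nfkbiz is placed. Over all 10 members the pairs of numbers 1, 2 and 3 had medians of 0.37, 0.09 and 0.22 on the log2 scale, while the medians over all tested genes were within 0.01 of 0 in each pair. Taken as deviations from the 6-library mean of each gene, the member medians were 0.32, 0.16 and -0.07 in KO replicates 1, 2 and 3 and -0.08, 0.03 and -0.24 in control replicates 1, 2 and 3. KO replicate 3 therefore stood below control replicate 2 and next to control replicate 1. Without both libraries of number 1 the member median was 0.0763, against 0.22 with all libraries. It was 0.25 without both libraries of number 2 and 0.22 without those of number 3.

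Other gene lists varied between the same libraries. Immediate-early genes (21 of 21 tested), which respond to growth factors and also to cell handling, summed to 7226, 7096 and 5338 CPM in KO replicates 1, 2 and 3 and to 4982, 7095 and 4899 CPM in control replicates 1, 2 and 3. Control replicate 2 was thus as high as the upper KO libraries in this list, and it was also the highest library for Nfkbia, Nfkbiz and Tnfaip3. Dendritic cell markers (7 of 7 tested) summed to 991, 413.5 and 362 CPM in the KO and to 555, 421 and 480 CPM in the control, with KO replicate 1 highest, as in 6 members. The dendritic markers Xcr1 and Clec9a had 269 and 330.7 CPM in KO replicate 1. Their part in the member values was not tested.

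Macrophage markers (14 of 15 tested) summed to 930.2, 292 and 406 CPM in the KO and to 1187, 222 and 259 CPM in the control, so both libraries of number 1 stood apart. Neutrophil and monocyte markers (15 of 16 tested) summed to 3005 to 3581 CPM in the KO and 2582 to 3911 CPM in the control, although 11 of the 15 had a negative log2 fold change and the list median was -0.60. T and NK cell markers (7 of 8 tested) summed to 51.2 to 81.6 CPM in the KO and 92.5 to 94.8 CPM in the control. Nkg7, the largest part of these sums, was level (log2 fold change -0.06). Cd28 (-1.14) and Ctla4 (-1.56) passed only with the block (edgeR adjusted p 0.015 and 0.037), while Cd3d and Klrb1c were at -0.12 and -0.13. Mast cell, basophil and eosinophil markers (4 of 6 tested) summed to 37.7 to 55.1 CPM in the KO and 74.6 to 102 CPM in the control. That gap came from the eosinophil granule gene Prg2 (log2 fold change -1.71; edgeR adjusted p 0.0881, or 0.00929 with the block), while Cpa3, Mcpt8 and Ms4a2 were between -0.06 and -0.13. Erythroid markers (1 of 5 tested) summed to 2.18 to 7.97 CPM in the KO and 2.93 to 12.9 CPM in the control. Endothelial and stromal markers (4 of 5 tested) summed to 34.5 to 37.6 CPM in the KO and 13.1 to 41.6 CPM in the control. None of the listed markers was at 0 in every library, and their part in the member values was not tested.

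**Figure D4:**
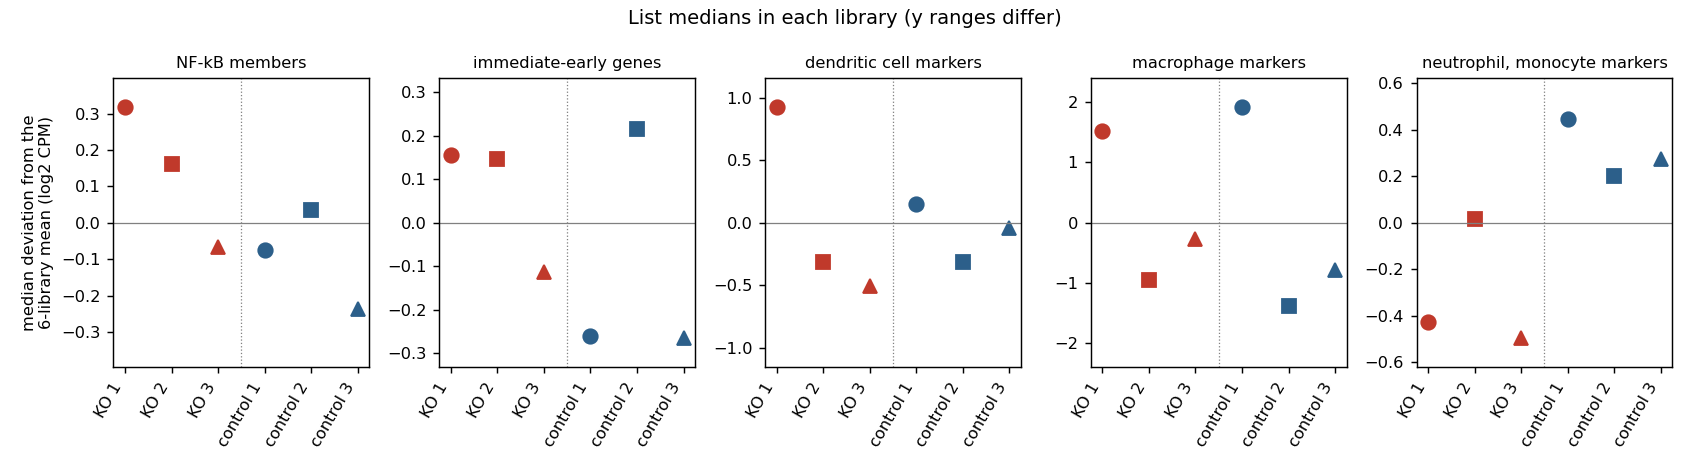
Median deviation from the 6-library mean, on the log2 CPM scale, of the 10 NF-kB genes and of 4 other gene lists in each KO (red, left) and control (blue, right) library; the vertical ranges differ between panels. The NF-kB genes run from 0.32 in KO replicate 1 to -0.24 in control replicate 3, and the dendritic list is also highest in KO replicate 1 (0.92).

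The rest of the pathway was examined through 58 further genes, of which 54 passed the count filter. None passed in edgeR, with or without the block (smallest adjusted p 0.800 without the block and 0.0666 with it), nor in DESeq2. At an unadjusted p under 0.05 in edgeR there were 3 without the block, against 3.90% of all genes. The block gave 12, beside 1238 of all 13217 genes. Of the 54, 37 (68.5%) had a log2 fold change above 0, with a median of 0.07. For 7 of them (12.96%, against the 3.43% given above for all genes) every KO library exceeded every control library, and 23 (42.6%, against 15.1%) were higher in all 3 pairs. The 7 were Nfkbid, Traf2, Traf3, Tnfrsf1a, Ltbr, Irf1 and Gadd45b; Ltbr, the lymphotoxin receptor gene, is outside the rule for naming genes. The list was drawn up with earlier results of these data known.

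Among the NF-kB subunits and related IkB proteins (6 tested, 5 positive, median log2 fold change 0.18), Nfkb1, the precursor of p50, was the most abundant per library. It had 340, 338 and 312 CPM in the KO and 311, 323 and 333 CPM in the control (log2 fold change 0.03 ± 0.08, SE). Rela, the main transactivating subunit, was as level (-0.01 ± 0.10, SE). Nfkbid, a nuclear IkB, had 48.4, 49.7 and 46.5 CPM in the KO and 44.98, 46.3 and 27.5 CPM in the control, with control replicate 3 lowest as in Tnfaip3 and Tnf. Bcl3, another nuclear IkB, had a log2 fold change of 0.38 ± 0.30 (SE).

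Among kinases and adaptors (19 tested, 15 positive, median 0.06), the IKK catalytic subunit gene Ikbkb (0.11 ± 0.08, SE) and the interleukin-1 receptor kinase gene Irak1 (-0.0023 ± 0.09, SE) were the most highly counted. The TNF receptor adaptors Traf2 (0.18 ± 0.09) and Traf3 (0.14 ± 0.09, SE) had the smallest p of this group. In both every KO library exceeded every control library, but narrowly. For Traf2 the lowest KO library had 48.1 CPM and the highest control library 47.48 CPM. For Traf3 these were 66.97 and 66.71 CPM. Among receptors (7 tested, 5 positive, median 0.20), Tnfrsf1a, the main TNF receptor, had 73.9, 82.8 and 77.0 CPM in the KO and 69.8, 69.6 and 64.2 CPM in the control. Those groups did not overlap, with a log2 fold change of 0.20 ± 0.09 (SE; edgeR adjusted p 0.9995). Tnfrsf1b, the other TNF receptor, was level (0.03 ± 0.10, SE). Cd40, a TNF receptor family member of antigen-presenting cells, had 31.7, 19.7 and 15.3 CPM in the KO and 17.8, 13.1 and 11.97 CPM in the control, highest in KO replicate 1 like the dendritic markers.

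A sub-list of negative regulators outside the 10, which holds no IkB gene, had a median of -0.03 (6 tested, 2 positive). They included Tax1bp1 (-0.06 ± 0.08), an A20 adaptor, the ubiquitin ligase gene Itch (0.09 ± 0.13), and the A20-binding protein genes Tnip1 (-0.15 ± 0.13) and Tnip2 (-0.12 ± 0.09, SE). Other target genes of NF-kB (16 of 20 tested, 10 positive) had a median of 0.23. Irf1, a transcription factor also induced by interferon-gamma, had 177, 213.6 and 169 CPM in the KO and 124, 155 and 147 CPM in the control, and its groups did not overlap. The log2 fold change of Irf1 was 0.39 ± 0.12 (SE; edgeR adjusted p 0.800, or 0.0995 with the block). Gadd45b, a stress-response gene that NF-kB induces, had 31.1, 25.6 and 18.3 CPM in the KO and 17.7, 17.0 and 15.03 CPM in the control (log2 fold change 0.59 ± 0.20, SE; edgeR adjusted p 0.942). Sod2, a mitochondrial superoxide dismutase gene, was level at -0.04 ± 0.10 (SE). Ccl4, a chemokine gene, is named because its unadjusted p was also under 0.05 in edgeR without the block (0.63 ± 0.26, SE, edgeR adjusted p 0.9995).

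The genes whose pattern over the 6 libraries was most like the mean standardised pattern of the 10 members were Rell1, Pik3r2, Rpl18, Rab11a and Jag1, with Pearson correlations of 0.996, 0.994, 0.989, 0.988 and 0.986. These are the 5 highest among 13207 genes over 6 libraries, so values this close to 1 are a description only. None of the 5 passed between the groups (edgeR adjusted p 0.9995 for each).

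In the authors' deposited table the 10 members had log2 fold changes from -0.04 (Nfkbiz) to 0.40 (Icam1), KO over control, and an adjusted p of 0.99994 each.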

How the data were processed

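RNA was measured in 6 libraries, 3 KO and 3 control, grouped by title. The authors deposited whole-number counts per gene, FPKM values, and their own comparison as log2 fold changes with adjusted p-values. The build mm10 and the tools DESeq2 1.10.1 and Novoalign 2.08.01 are named in the submitters' processing notes. The read counter and its use of strand are not stated in the labels.

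Counts were tested with edgeR 4.0.16 (R 4.3.3; TMM, filterByExpr with minimum count 10 and total 15, two-sided quasi-likelihood test on group), adjusted by Benjamini-Hochberg over 13217 genes at 0.05. SE was derived from the F statistic, and 95% intervals from its t quantile. FPKM only ordered genes by level. DESeq2 1.42.0 and limma 3.58.1 were alternatives; fits were tested on simulated data. Deviations from group means correlated between equal replicate numbers 1, 2 and 3 (r = 0.57, 0.53 and 0.22) and between unequal numbers from -0.51 to 0.13. Because the deviations were centred within each group, positive values at equal numbers force negative ones among the unequal numbers. The unequal values are therefore no separate support for pairing. On the values at equal numbers, the numbers were treated as pairs in the pair differences and in the fit with the replicate block. The labels do not state what they share. The main fit used group alone and gave every SE and 95% interval printed here. Members and lists were chosen with earlier results of these data known. Named beyond the members were, per pathway sub-list, the 2 most highly counted genes and the 2 with the smallest p, and the 5 most similar patterns.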

Additional observations from a re-analysis of the deposited data

How the results depend on the processing

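No member passed under any alternative run: another size factor, no or a stricter count filter, DESeq2, limma-voom, the replicate block, and leaving out 1 library or both of a number. Of 150 member values, 140 kept their direction and 10 reversed. Leaving out 1 library gave -0.113 to 0.196 for Nfkbia, -0.189 to 0.268 for Nfkbiz, -0.0957 to 0.596 for Tnfaip3 and -0.0186 to 0.223 for Birc3. Without both libraries of number 1, Nfkbia was -0.0131 and Birc3 -0.0087; without those of number 2, Nfkbiz was 0.134; without those of number 3, Nfkbia was -0.0871 and Tnfaip3 -0.0552. The member median (0.22) was 0.12 to 0.29 when 1 library was left out, 0.27 with the replicate block, and 0.0763 without both libraries of number 1. The count of 21 genes called over the table became 180 with the replicate block, 131 with DESeq2 and 97 without a filter. It was 32 at a threshold of 0.1. Without both libraries of number 1, 2 or 3 it was 27, 10 and 6, and without 1 library 0 to 27. The fits that leave libraries out hold fewer samples, and their counts went both up and down. The causes were not tested. The block changed no call of a member or other pathway gene. Of the genes named it changed the calls of Mir155hg, Prg2, Cd28 and Ctla4. With 3 pools per group the 95% intervals of the members reach up to a fold of 1.90 (Relb).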
